A study of Brassica rapa subsp. rapa with 9 samples.

Results

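UV-A was compared with UV-B in the skin of the red turnip 'Tsuda' (Brassica rapa subsp. rapa). The comparison took 6 of the 9 arrays of the study, the 3 titled for UV-A and the 3 titled for UV-B, and paired them by the replicate number in the title. The 3 blue arrays entered the fit only to estimate the spread and the replicate block, so standard errors and p-values rest on all 9 arrays. The swollen hypocotyl, the storage organ of the turnip, received 24 hours of UV-A or UV-B (or of blue light on the other arrays), and control organs stayed in darkness. PolyA RNA was taken from a thin peeled surface layer, and every biological replicate combined more than 5 plants. Each spotted cDNA array carried an exposed sample in Cy3 and a dark sample in Cy5, always in that orientation, and no genotype or treatment other than the light was named. The labels do not state the UV source, dose or spectrum. Groups come from the titles, because the free-text description of all 9 samples names blue light.

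UV-B reaches plant cells as the most energetic sunlight at the ground. It is sensed by UVR8, a receptor whose dimer falls apart when it absorbs UV-B, and at higher doses it damages DNA and raises reactive oxygen. UV-A lies next to blue light and is sensed mainly by cryptochromes and phototropins. Both can switch on chalcone synthase and the flavonoid pathway, whose anthocyanins colour the skin of red turnips. Members of the mustard family also store glucosinolates, which myrosinase enzymes turn into repellent products when tissue breaks.

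Values are log2 ratios of light over dark per array, and a difference is the UV-A value minus the UV-B value. A positive difference means more RNA in UV-A than in UV-B, each relative to its dark sample. It does not mean that UV-A lay above the dark level. The authors' deposited value table has the opposite direction (dark divided by light), so its signs were inverted for use here. Because the dyes were never swapped, dye bias of a probe is contained in each ratio and cancels in the difference. Genes carry the name of their best Arabidopsis match in the deposited annotation, and their roles below are those known from Arabidopsis. A name with several probes is represented by its brightest probe. Bulk tissue was measured, so fewer cells of a type and less RNA per cell cannot be told apart.

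The signal differed between the arrays before any gene was compared. In the light channel, the median ratio of foreground to background was 3.57, 4.35 and 16.5 on UV-B replicates 1, 2 and 3, against 8.82, 65.8 and 39.4 on the UV-A replicates. Across probes, which are not independent of each other, correlations between replicates were 0.415 to 0.684 for UV-A and 0.573 to 0.772 for UV-B. The paired differences correlated at 0.472 to 0.784. Before normalization, the log ratios of duplicate spots correlated at 0.626 on UV-B replicate 2 and at 0.869 to 0.956 on the other UV arrays. On the blue arrays they correlated at 0.952, 0.578 and 0.856. On the arrays numbered 3, at least 99.3% of the 135 spots without a clone stood above background, against at most 8.15% on the other arrays. The part of these features in the differences was not tested, and counts without those arrays are given beside the main one.

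UV-A and UV-B differed at 379 of 2507 probes at an adjusted p under 0.05 (limma, Benjamini-Hochberg over all probes), a background of 15.1%. RNA was higher in UV-A at 234 of them (9.33%) and lower in UV-A at 145 (5.78%), and the median difference over all probes was -0.04. Every called difference was at least 1.03 in size on the log2 scale, and 163 were 2 or more. The 3 and 3 arrays did not overlap at 343 of the called probes, against 849 of all probes (33.9%). In 296 called probes the UV-B mean lay farther from the dark level than the UV-A mean, as it did in 1506 of all 2507. Across probes, the standard deviation of the mean log2 ratio was 0.68 in UV-A and 1.03 in UV-B. Against darkness, in a fit without pairing, 80 probes (3.19%) passed in UV-A and 620 (24.7%) in UV-B. Those values include dye bias and serve only to place each light beside the difference.

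The total was 166 (115 higher, 51 lower) without the replicate block and 177 (124 and 53) in the 6 UV arrays alone. Leaving out 1 UV array gave between 119 calls (without UV-A replicate 3) and 467 (without UV-B replicate 2), and no call of the full fit changed sign. Without all arrays numbered 3, 152 probes passed, 106 higher and 46 lower. In the authors' deposited values, the split was 304 higher and 319 lower, so the surplus of probes higher in UV-A was not seen in those values.

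**Figure D1:**
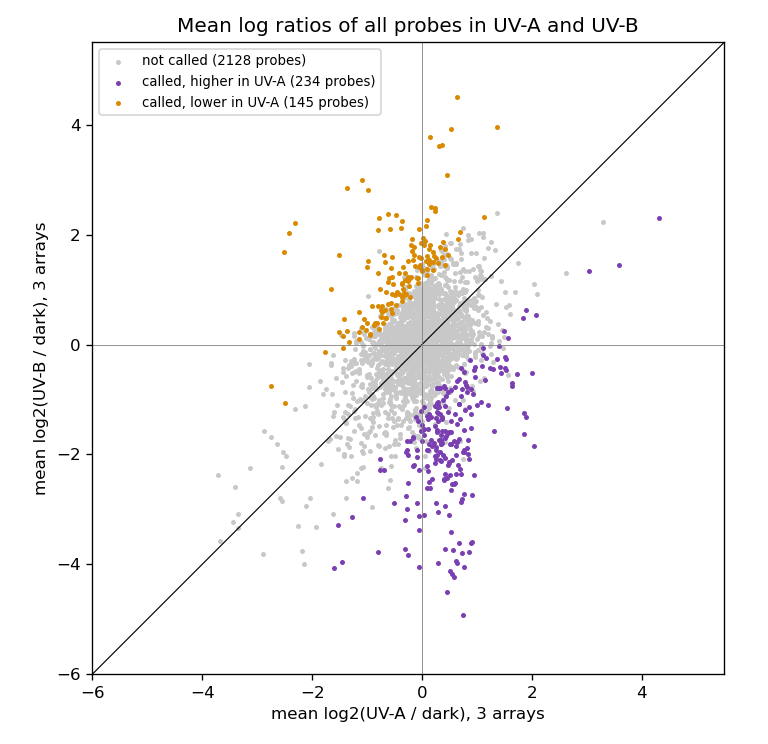
Mean log2(UV-A/dark) on the horizontal axis against mean log2(UV-B/dark) on the vertical axis, each over 3 arrays, with 1 point per probe and the line of equal ratios. The 234 probes called higher in UV-A form a band that runs downwards near a UV-A value of 0, and the 145 called lower form a band that runs upwards.

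Of the 999 Arabidopsis names, 137 were called (13.7%), 78 higher (7.81%) and 59 lower (5.91%) in UV-A. The genes highest in UV-A relative to UV-B were mostly near the dark level in UV-A and far below it in UV-B. AT2G01520, a protein of the major latex protein family, had log2 ratios of -0.03, 0.15 and 1.23 on UV-A replicates 1, 2 and 3, and of -4.55, -3.42 and -5.55 on the UV-B replicates. The 3 UV-B arrays were all far below every UV-A array. The difference was 4.96 ± 0.52 (SE, n = 3 arrays per light, 31.0-fold, limma adjusted p = 0.000193). Its other 8 probes ranged from -0.78 to 5.66, and 4 of them also passed as higher.

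ARAC9, a GTP-binding protein in the annotation, gave 0.32, -0.16 and 1.54 in UV-A and -3.15, -3.16 and -4.90 in UV-B. The difference was 4.30 ± 0.58 (limma adjusted p = 0.000927), and the third pair of arrays was the widest apart. It was 3.61 without UV-A replicate 3 and 3.39 without UV-B replicate 3. Its other 2 probes were at 1.5 (called) and 0.33, and the mean over the 3 was 2.04 (adjusted p = 0.00238). AT4G27830, a glycosyl hydrolase in the annotation, gave -0.06, 1.16 and 0.90 in UV-A and -3.82, -3.26 and -3.73 in UV-B, a difference of 4.27 ± 0.34 (19.3-fold, limma adjusted p = 3.2e-05). The UV-B arrays were close together, and its other 3 probes were smaller, between 0.33 and 2.34.

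AT5G42100, a beta-1,3-glucanase of plasmodesmata, the channels between plant cells, gave 0.83, 0.59 and 1.30 in UV-A and -3.19, -2.07 and -2.98 in UV-B. The difference was 3.65 ± 0.42 (limma adjusted p = 0.000372), with both groups well apart. None of its other 4 probes passed, and with the mean over all 5 probes the difference was 0.79 (adjusted p = 0.111). SAR1, a synaptobrevin-related protein of vesicle traffic in the annotation, had a difference of 3.50 ± 0.43 (limma adjusted p = 0.000536). Its other 2 probes were at -0.58 and -0.50 and not called, so the probes of this name disagreed, and their mean was 0.80 (adjusted p = 0.0885).

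PRXR1, a class III peroxidase, which uses hydrogen peroxide at the cell wall, was the name with the most called probes. The brightest probe gave -0.39, 1.06 and 0.23 in UV-A and -3.54, -2.83 and -2.75 in UV-B, with all UV-B arrays below all UV-A arrays. The difference was 3.34 ± 0.36 (10.1-fold, limma adjusted p = 0.000216), and 25 of its 29 probes passed as higher and none as lower. The range over the 29 probes was 0.04 to 4.82. Spots of this probe were saturated on 4 of the 6 UV arrays, so the size is not exact.

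AT3G51550, which is FERONIA, a receptor kinase of the cell surface that binds RALF peptides, gave 0.08, 0.83 and 0.86 in UV-A and -2.15, -2.89 and -2.58 in UV-B. The difference was 3.13 ± 0.40 (limma adjusted p = 0.000671), while its other probe was at 0.10. RALFL22, a peptide of the RALF family, gave -0.10, -1.05 and 0.99 in UV-A and -3.21, -2.51 and -3.66 in UV-B, a difference of 3.07 ± 0.52 (limma adjusted p = 0.00333). The lowest UV-A array still lay above the highest UV-B array. In the Cy3 signal alone (the light channel after a normalization that used both channels) the RALFL22 difference was 1.49 (adjusted p = 0.21). AT5G59910, a histone H2B, differed by 3.09 ± 0.45 (limma adjusted p = 0.0014), and its other probe stood at 0.43.

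ERD14, a dehydrin that protects proteins and membranes when cells lose water, was called against darkness in both lights and in opposite directions. Both calls of this probe were near the threshold (limma without pairing, adjusted p = 0.0369 in UV-A and 0.0473 in UV-B), and ratios to dark include dye bias. ERD14 gave 1.18, 2.69 and 1.71 in UV-A and -1.76, -0.08 and -1.88 in UV-B. All UV-A arrays were above the dark level and all UV-B arrays were below it. The difference was 3.10 ± 0.48 (8.57-fold, limma adjusted p = 0.00191), and the other ERD14 probe gave 3.50.

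**Figure D2:**
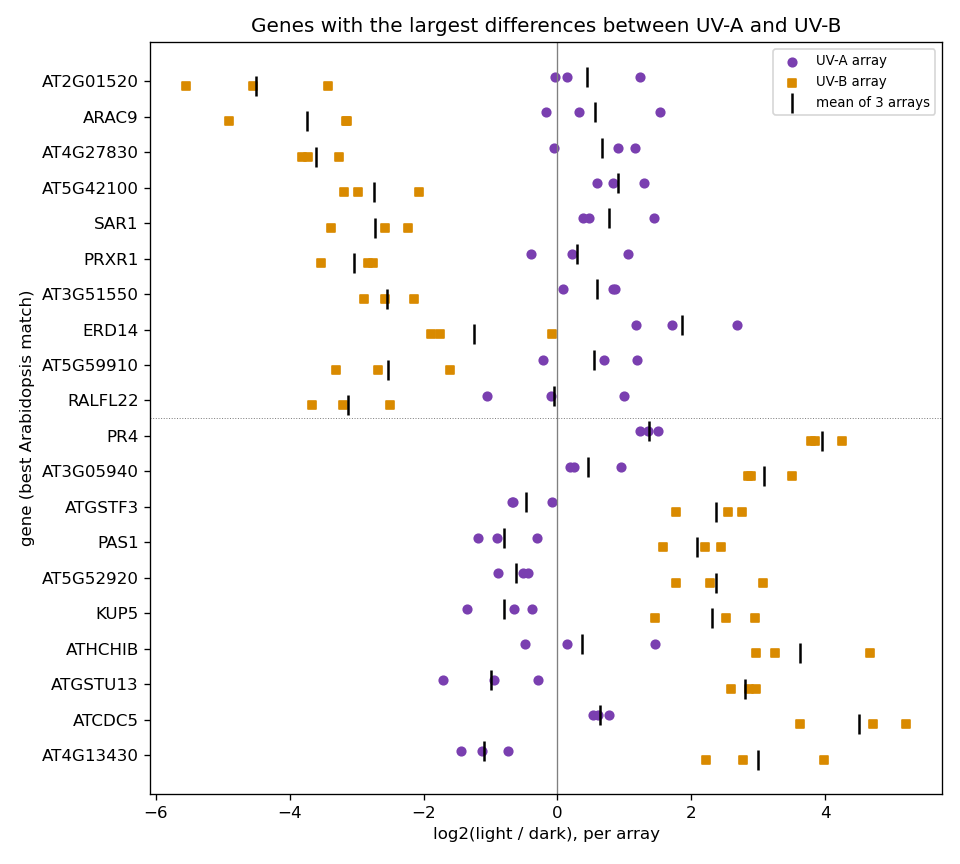
Log2(light/dark) per array for the 10 genes with the largest difference in each direction, with circles for the 3 UV-A arrays, squares for the 3 UV-B arrays and bars for means. In the upper 10 genes the UV-B squares lie below 0, and in the lower 10 genes all UV-B squares lie above 1.

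In the 10 genes lowest in UV-A relative to UV-B, all UV-B arrays stood above the dark level. AT4G13430, the large subunit of isopropylmalate isomerase, which works in leucine synthesis and in the side chain elongation of methionine-derived glucosinolates, gave -1.12, -0.73 and -1.43 in UV-A and 3.99, 2.78 and 2.22 in UV-B. The difference was -4.10 ± 0.40 (17.1-fold lower, limma adjusted p = 0.000143), the largest negative one among names. ATCDC5, a Myb-related protein that belongs to the splicing machinery and to immune signalling in Arabidopsis, gave 0.60, 0.53 and 0.76 in UV-A and 4.71, 3.62 and 5.21 in UV-B. The UV-A arrays were nearly equal, and the difference was -3.88 ± 0.37 (limma adjusted p = 0.000143). Each of these 2 names had 1 probe.

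Enzymes of detoxification and defence followed. ATGSTU13, a glutathione transferase of the tau class, which conjugates reactive compounds to glutathione, gave -0.29, -1.71 and -0.95 in UV-A and 2.86, 2.59 and 2.97 in UV-B. No array of one light came near those of the other, and the difference was -3.79 ± 0.37 (13.9-fold lower, limma adjusted p = 0.000143). ATGSTF3, of the phi class, gave -0.67, -0.68 and -0.09 in UV-A and 1.78, 2.56 and 2.76 in UV-B, a difference of -2.84 ± 0.34 (limma adjusted p = 0.000443). Its other probe had -4.22, below dark in UV-A and above dark in UV-B. With print-tip loess the ATGSTF3 difference was -2.19.

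ATHCHIB, the basic chitinase that cuts fungal cell walls, gave 0.14, 1.46 and -0.49 in UV-A and 3.25, 2.97 and 4.67 in UV-B. The second pair of arrays was the closest, and the difference was -3.26 ± 0.59 (9.58-fold lower, limma adjusted p = 0.00493). Of its 5 probes, 4 passed as lower, and the fifth was at 0.48. It was not called with UV-A replicate 3 left out (adjusted p = 0.0514), and without UV-B replicates 2 and 3 in turn the difference was -4.13 and -2.38. PR4, a chitin-binding pathogenesis-related protein, gave 1.24, 1.36 and 1.5 in UV-A and 3.85, 3.79 and 4.25 in UV-B. It was above dark on all 6 arrays and higher in UV-B, with a difference of -2.59 ± 0.37 (limma adjusted p = 0.00125). The other PR4 probe went the other way at 1.30 (adjusted p = 0.0825), and the mean of both was -0.65 (adjusted p = 0.21).

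KUP5, a potassium transporter, had -0.38, -0.65 and -1.35 in UV-A and 2.96, 2.52 and 1.46 in UV-B, a difference of -3.10 ± 0.50 (limma adjusted p = 0.00227). AT5G52920, a plastid pyruvate kinase that feeds fatty acid synthesis, had a difference of -2.98 ± 0.43 (limma adjusted p = 0.00139), but its other 3 probes lay between -0.24 and -0.19. The mean over its probes was -0.92 (adjusted p = 0.0564). PAS1, an immunophilin-like protein needed for very long chain fatty acids and for ordered cell division, had -0.90, -0.31 and -1.19 in UV-A and 2.21, 2.45 and 1.58 in UV-B. Its UV-A and UV-B arrays were on opposite sides of the dark level, 2.88 apart on the log2 scale (-2.88 ± 0.33, limma adjusted p = 0.000372). AT3G05940, of unknown function in the annotation, differed by -2.62 ± 0.31 (limma adjusted p = 0.000421), with paired differences of -2.60, -2.56 and -2.71.

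The pathway of skin colour was described over 7 genes. In all 7 the difference was positive, with a median of 0.98 against -0.08 over all 999 names, but only chalcone synthase passed (1 of 7 higher, none lower, beside 7.81% and 5.91% of all names). CHS, chalcone synthase, the entry enzyme of the pathway, gave 0.87, 2.15 and 2.49 in UV-A and 0.21, 0.03 and 1.23 in UV-B. UV-A replicate 1 lay below UV-B replicate 3, so the groups overlapped, although every pair was higher in UV-A. The difference was 1.35 ± 0.40 (2.54-fold, limma adjusted p = 0.0459). Among its 7 probes, 5 passed as higher and none as lower, and the mean over the 7 gave 1.35 (adjusted p = 0.0155). The call was lost without any 1 of the 6 UV arrays (adjusted p from 0.057 to 0.219, differences from 0.94 to 1.66), without the pairing (adjusted p = 0.217), and in the Cy3 signal alone (0.28, adjusted p = 0.742).

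The later enzymes had smaller or less certain differences. F3H, which adds the 3-hydroxyl group to flavanones, gave 1.63, 1.66 and 1.79 in UV-A and 1.58, 0.27 and 1.05 in UV-B, all above the dark level. The UV-A arrays were alike and the UV-B arrays were not, and the difference of 0.73 ± 0.39 did not pass (limma adjusted p = 0.215). LDOX, which forms the coloured anthocyanidins, gave 0.10, 0.11 and 0.64 in UV-A and -1.10, -0.84 and -0.66 in UV-B. Its arrays did not overlap, and its difference of 1.15 ± 0.39 (limma adjusted p = 0.0726) passed in the authors' deposited values (adjusted p = 0.0178), with print-tip loess (adjusted p = 0.0238) and without UV-B replicate 2 (adjusted p = 0.0428). It did not pass in the other 14 alternatives (adjusted p up to 0.241). Its other 2 probes were at -0.66 and 1.29, and the mean over the 3 was 0.59 (adjusted p = 0.152).

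DFR, the reductase between them, gave 0.37, 0.12 and 0.72 in UV-A and 0.30, -1.62 and 1.19 in UV-B, and UV-B replicate 2 was the single low array. Its difference was 0.45 ± 0.46 (limma adjusted p = 0.543). ATGSTF12, the glutathione transferase that carries anthocyanins to the vacuole, had 0.98 (limma adjusted p = 0.0826). AT1G03940, an acyltransferase of anthocyanins, had 1.35 (limma adjusted p = 0.074). The remaining member of the list, AT4G22870, was near 0 at 0.06 (limma adjusted p = 0.942).

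Upstream of flavonoids, none of 7 phenylpropanoid and lignin genes passed, and their median was 0.07. PAL1, phenylalanine ammonia-lyase, the first step of the pathway, gave 0.88, 1.24 and 0.82 in UV-A and 1.12, 1.71 and 2.20 in UV-B. All 6 arrays were above the dark level, and the difference of -0.69 ± 0.35 did not pass (limma adjusted p = 0.195). ATR2, a P450 reductase that supplies electrons to this pathway, had 0.07 ± 0.34.

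None of 7 light receptor and signalling genes differed past the test, with a median of 0.05. UVR8, the UV-B receptor, had 0.05, -0.01 and 0.15 in UV-A and -0.22, 0.54 and -0.28 in UV-B, around the dark level in both. The difference was 0.05 ± 0.36 (limma adjusted p = 0.936). PHOT1, a blue and UV-A light receptor kinase, had -0.44, 0.33 and -0.24 in UV-A and 0.14, -0.32 and 1.28 in UV-B, with a difference of -0.49 ± 0.43 (limma adjusted p = 0.473). The arrays of both receptor genes overlapped between the lights. Of 4 genes that mark green tissue or plastids none passed. LHCB2.1, a light-harvesting protein, had 0.02, and AT5G38420, a small subunit of Rubisco, had -1.26 ± 0.42 (limma adjusted p = 0.0715), which passed with print-tip loess (adjusted p = 0.038) and in the authors' deposited values (adjusted p = 0.0232).

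**Figure D3:**
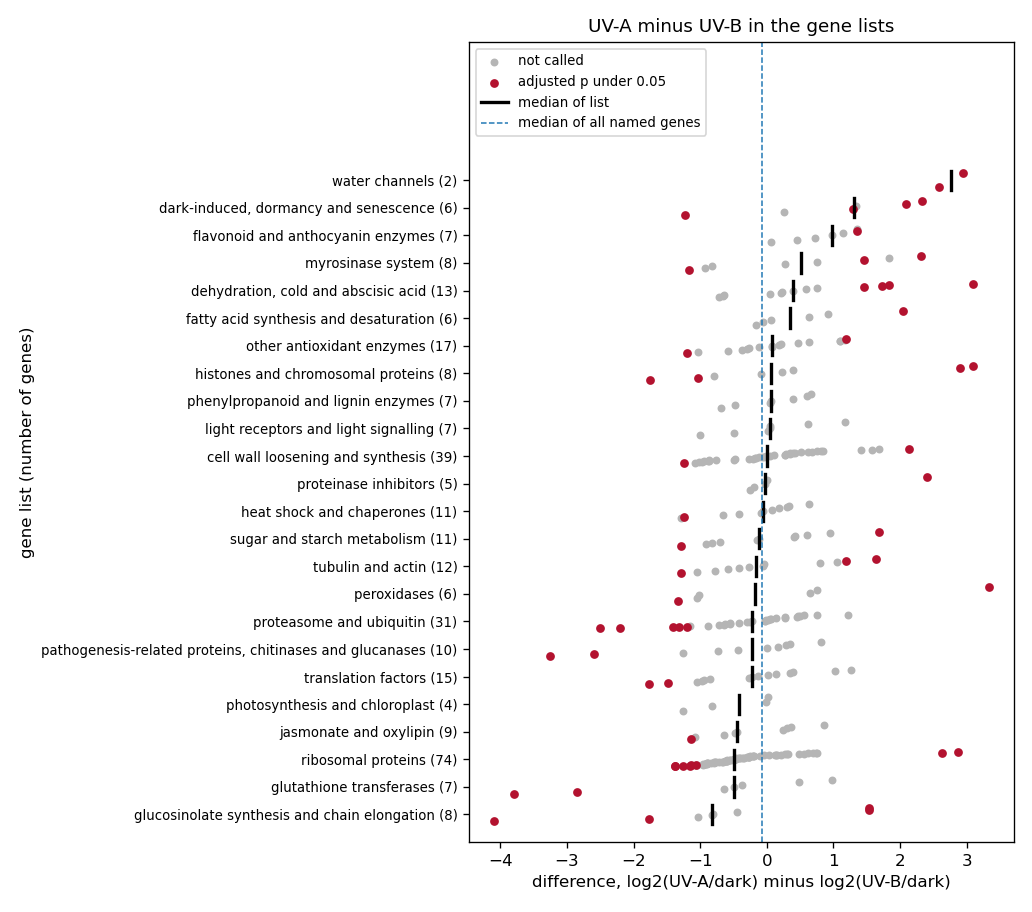
Difference UV-A minus UV-B on the log2 scale for each member of the 24 gene lists, 1 row per list, with called members in red and the list median as a black bar. The 7 flavonoid genes all lie above 0, and the median over all 999 names (dashed line) is -0.08.

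Beyond the first pair of a list, called members are named below after their values were seen. Every count of a list is to be read beside the 7.81% higher and 5.91% lower of all 999 names, and no set test was run. Glucosinolate genes went both ways, with 2 of 8 higher, 2 of 8 lower and a median of -0.82. Next to AT4G13430 stood SUR1, the C-S lyase of the glucosinolate core pathway, with -0.47, -1.10 and -0.05 in UV-A and 1.02, 1.31 and 1.35 in UV-B. The lights lay on opposite sides of the dark level, with a difference of -1.77 ± 0.38 (limma adjusted p = 0.0133). SUR1 missed the threshold when UV-A replicate 3 or UV-B replicate 1 was left out (adjusted p of at most 0.0774) and with spots of weight 0 included (-0.97, adjusted p = 0.0754). CYP83A1, the P450 for aliphatic glucosinolates, had 1.53 (limma adjusted p = 0.0247), and MAM-L, a methylthioalkylmalate synthase of chain elongation, also had 1.53 (limma adjusted p = 0.0196). Neither passed without the replicate block or in the 6 UV arrays alone, where no member of the list was higher. CYP83A1 was called at 4 of its 19 probes (mean over probes 0.41, adjusted p = 0.369) and MAM-L at 1 of 5 (0.32, adjusted p = 0.656).

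In the myrosinase system 2 of 8 genes were higher and 1 lower, with a median of 0.51. AT3G14210 is the epithiospecifier modifier ESM1, which steers glucosinolate breakdown towards isothiocyanates. It gave -0.24, -0.28 and 0.81 in UV-A and -2.36, -1.58 and -2.72 in UV-B, with no overlap. The difference was 2.32 ± 0.48 (4.98-fold, limma adjusted p = 0.00976), and 20 of its 28 probes passed as higher and none as lower. It was 1.63 without UV-B replicate 3, and did not pass when UV-A replicate 3 was left out (adjusted p = 0.0774). AT2G39330, a jacalin-related lectin, differed by 1.46 ± 0.32 (limma adjusted p = 0.0141), which missed the threshold when UV-A replicate 1, UV-A replicate 3 or UV-B replicate 1 was left out (adjusted p of at most 0.0894). Of its 5 probes, 4 passed as higher, and the mean over the 5 was 1.84 (adjusted p = 0.00245). TGG1, a myrosinase itself, was lower at -1.16 (limma adjusted p = 0.0357), but not without the replicate block, in the 6 UV arrays alone or over the mean of its 2 probes (-0.46, adjusted p = 0.293). AT2G39310 was not called through its brightest probe (0.28), while 5 of its 8 probes passed as higher and the mean over the 8 was 1.94 (adjusted p = 0.00156).

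Of 10 pathogenesis-related proteins, chitinases and glucanases, ATHCHIB and PR4 were lower and none was higher through its brightest probe, and the median was -0.22. ATOSM34, an osmotin-like protein, had 0.81 at its brightest probe, but 4 of its 10 probes passed as lower and 1 as higher, and their mean was -1.02 (adjusted p = 0.0784). AT2G43590 had -0.0009 at its brightest probe, and the mean over its 3 probes was -1.145 (limma adjusted p = 0.0501). Among 5 proteinase inhibitors, AT1G73325, a Kunitz-type inhibitor, was higher by 2.40 ± 0.57 (limma adjusted p = 0.0186), and the other 4 lay between -0.25 and -0.00391. It missed the threshold when UV-A replicate 3 or UV-B replicate 3 was left out (1.61 without the latter, adjusted p of at most 0.116), while the difference was 3.22 without UV-B replicate 1. Its other 2 probes were at -1.35 and 1.01, and the mean of all 3 was 0.69 (adjusted p = 0.231). Of the brightest probes of 9 jasmonate and oxylipin genes, that of ATCLH1, coronatine-induced chlorophyllase, was the one called, at -1.14 ± 0.34 (limma adjusted p = 0.0459), and it lost its call without any 1 of the 6 UV arrays (adjusted p from 0.0748 to 0.19). JR1, a jasmonate-responsive gene, had 3 of 7 probes higher and a mean over probes of 1.40 (adjusted p = 0.0328).

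Genes that handle reactive oxygen were divided. Of 6 peroxidases, PRXR1 was higher and PRXCB lower through the brightest probe. AT5G58390 was not called there (-1.05), while the mean over its 3 probes was -1.50 (limma adjusted p = 0.0448). PRXCB, a class III peroxidase of the apoplastic oxidative burst, gave -0.69, -0.73 and -0.29 in UV-A and 0.73, 0.47 and 1.07 in UV-B, a difference of -1.33 ± 0.34 (limma adjusted p = 0.0242). Its call held only without UV-B replicate 2 among the 6 fits with an array less (adjusted p up to 0.156), and in the Cy3 signal alone it was -0.37. Of 7 glutathione transferases, the 2 above were lower and none was higher, with a median of -0.50.

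Of 17 other antioxidant genes, 1 was higher and 1 lower. CSD1, the cytosolic copper/zinc superoxide dismutase, gave 0.91, 1.07 and 1.41 in UV-A and 1.98, 1.85 and 3.15 in UV-B. It was above dark on every array and higher in UV-B, with a difference of -1.19 ± 0.34 (limma adjusted p = 0.04). MT2A, a metallothionein, which binds metals, differed by 1.18 ± 0.35 (limma adjusted p = 0.0461). CSD1 kept its call in 1 of the 6 fits without a UV array, that without UV-B replicate 2, and MT2A in none (adjusted p of at most 0.181 and 0.205). The mean over the 3 CSD1 probes was -0.46 (adjusted p = 0.272) and that over the 8 MT2A probes, of which 3 passed, was 0.86 (adjusted p = 0.0632).

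Both measured water channels of the plasma membrane were higher in UV-A (2 of 2 past the test, beside 7.81% of all names). Their UV-B arrays all lay below the dark level. PIP3 gave 0.39, 1.41 and 0.75 in UV-A and -1.76, -2.02 and -2.49 in UV-B, a difference of 2.94 ± 0.45 (7.67-fold, limma adjusted p = 0.0018). PIP1B gave 0.57, 1.06 and 0.90 in UV-A and -1.96, -1.49 and -1.78 in UV-B, a difference of 2.59 ± 0.31 (6.02-fold, limma adjusted p = 0.000443). The replicates of PIP1B were within 0.5 of each other in each light, and its other probe gave 2.88. In the Cy3 signal alone PIP3 had 1.76 (adjusted p = 0.0571).

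Of 13 genes of dehydration, cold and abscisic acid, 4 were higher and none lower (beside 7.81% and 5.91% of all names), with a median of 0.39. The higher ones numbered 2 without the replicate block, 2 in the 6 UV arrays alone and 1 without UV-A replicate 3. Besides ERD14 they were RD21, ERD10 and RCI2B. RD21, a drought-induced cysteine protease, gave 1.42, 0.35 and 2.49 in UV-A and -0.26, -1.09 and 0.10 in UV-B, a difference of 1.84 ± 0.46 (limma adjusted p = 0.0235). Its call held only without UV-B replicate 2 among the 6 fits with an array less (adjusted p up to 0.1), and the mean of its 2 probes was 1.17 (adjusted p = 0.119). ERD10, another dehydrin, had 1.46 (limma adjusted p = 0.0354), and RCI2B, a small membrane protein induced by cold, had 1.73 (limma adjusted p = 0.0144). COR78 was not called through its brightest probe (0.23), while the mean over its 2 probes was 1.13 (limma adjusted p = 0.0328).

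Among 6 genes linked to darkness, dormancy and senescence, 3 were higher and 1 lower (beside 7.81% and 5.91% of all names), with a median of 1.31. DRM1, a dormancy-associated protein that marks buds and tissues that do not grow, gave -0.01, 1.28 and 0.23 in UV-A and -1.02, -1.32 and -2.44 in UV-B. The groups did not overlap, the difference was 2.09 ± 0.41 (limma adjusted p = 0.00722), and 7 of its 11 probes passed as higher and none as lower. DRM1 did not pass with UV-A replicate 3 left out (adjusted p = 0.0596). AT2G33830, a relative of DRM1, gave -0.08, 0.64 and 0.18 in UV-A and -2.59, -1.44 and -2.21 in UV-B, a difference of 2.33 ± 0.32 (limma adjusted p = 0.00108). SAG101, a lipase-like protein of senescence and immunity, had 1.30 (limma adjusted p = 0.0276), and SAG21, a late embryogenesis protein of senescing leaves, had -1.23 (limma adjusted p = 0.0278). Without the replicate block, and in the 6 UV arrays alone, 2 of the 6 were higher and none lower, and without UV-A replicate 3 it was 1 and none.

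Ribosomal proteins, which build the particles that translate RNA, formed the longest list. Of 74 ribosomal proteins, 2 were higher and 6 lower (beside 7.81% and 5.91% of all names), 16 had a positive difference, and the median was -0.49 against -0.08 over all names. The higher pair stood apart from the rest. AT2G36160, a protein of the small subunit, gave 0.18, 0.18 and 0.82 in UV-A and -2.11, -3.44 and -1.86 in UV-B, a difference of 2.86 ± 0.37 (limma adjusted p = 0.000689). Its other probe was at -0.58. AT4G02230, of the large subunit, differed by 2.62 ± 0.41 (limma adjusted p = 0.00201). The 6 lower ones ranged from -1.38 to -1.07. The median of the list stayed negative in all alternatives, between -0.60 and -0.19, while the number of lower members ranged from 0 to 17.

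Of 15 translation factors, 2 were lower and none higher. AT1G07920, elongation factor 1-alpha, which brings aminoacyl-tRNA to the ribosome, gave 0.04, -0.02 and -0.44 in UV-A and 1.59, 1.59 and 1.71 in UV-B. The UV-B arrays were almost equal, and the difference was -1.77 ± 0.34 (3.42-fold lower, limma adjusted p = 0.00707). It did not pass with UV-A replicate 3 left out (adjusted p = 0.0533) or in the Cy3 signal alone (-1.12, adjusted p = 0.256). AT2G45030, an organelle elongation factor, differed by -1.48 ± 0.33 (limma adjusted p = 0.0152), and its call held only without UV-B replicate 2 or 3 among the 6 fits with an array less (adjusted p up to 0.0821).

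Of 31 proteasome and ubiquitin genes, 5 were lower and none higher (beside 5.91% and 7.81% of all names), with a median of -0.21. Over the alternatives the lower ones numbered 2 to 7. RPT4A, an ATPase of the regulatory particle of the proteasome, gave -0.60, 0.47 and -1.03 in UV-A and 2.37, 2.02 and 1.95 in UV-B, a difference of -2.50 ± 0.39 (limma adjusted p = 0.00195). AT5G63780, a RING-type ubiquitin ligase, gave 0.13, 0.88 and -0.33 in UV-A and 2.36, 2.56 and 2.38 in UV-B, a difference of -2.20 ± 0.35 (limma adjusted p = 0.00228). In both the UV-B arrays were tight and the UV-A arrays spread. Of 11 chaperones, ATPDIL1-2, a protein disulfide isomerase of the endoplasmic reticulum, was the single call, at -1.25 ± 0.33 (limma adjusted p = 0.0313), lost without any 1 of the 6 UV arrays (adjusted p from 0.0607 to 0.135). Its other probe was at -0.10, and the mean of both was -0.67 (adjusted p = 0.14).

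Structural and metabolic lists held few calls. Of 12 tubulins and actins, TUB6 (1.64 ± 0.44, limma adjusted p = 0.031) and TUA2 (1.18, limma adjusted p = 0.0445) were higher and TUA5 (-1.29 ± 0.31, limma adjusted p = 0.0205) was lower. TUA5 had -0.99, -1.07 and -1.02 in UV-A and 0.34, 0.38 and 0.08 in UV-B, but none of its other 8 probes passed and the mean over all was -0.21 (adjusted p = 0.626). TUB6 passed at 2 of its 9 probes, whose mean was 0.80 (adjusted p = 0.0985), and it was 2.25 without UV-B replicate 2. No tubulin or actin was higher without the replicate block or in the 6 UV arrays alone. With 1 array left out, TUB6 passed in the fits lacking UV-A replicate 2 or UV-B replicate 2 only (adjusted p up to 0.163 in the others), and TUA5 in those lacking UV-B replicate 2 or 3 only (up to 0.117).

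Of 39 cell wall genes, 1 was higher and 1 lower, and the median was 0.00. AT5G45280, a pectin acetylesterase, differed by 2.14 ± 0.43 (limma adjusted p = 0.00863), but 1 of its other 7 probes passed as lower and the mean over its probes was 0.01 (adjusted p = 0.989). CESA1, a cellulose synthase subunit of growing cell walls, gave -0.95, -1.17 and -0.45 in UV-A and 0.52, 0.23 and 0.42 in UV-B, a difference of -1.25 ± 0.36 (limma adjusted p = 0.0421). AT5G45280 missed the threshold when UV-A replicate 1, UV-A replicate 3 or UV-B replicate 1 was left out (adjusted p up to 0.0707), and CESA1 did so without any 1 of the 6 UV arrays (adjusted p from 0.0602 to 0.212).

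Of 8 histones and chromosomal proteins, 2 were higher and 2 lower. HIS1-3, a linker histone that rises under drought in Arabidopsis, gave 0.26, 0.21 and 0.91 in UV-A and -3.14, -1.56 and -2.60 in UV-B, a difference of 2.89 ± 0.43 (limma adjusted p = 0.00159), or 3.50 without UV-B replicate 2. In the Cy3 signal alone it was 1.84 (adjusted p = 0.089). Its other 2 probes were at 1.15 and 0.01 and not called, and the mean over the 3 was 1.35 (adjusted p = 0.0131). Of 11 genes of sugar and starch metabolism, SEX1, the kinase that phosphorylates starch for its breakdown, was higher by 1.69 ± 0.41 (limma adjusted p = 0.0205). ATTPS1, trehalose-6-phosphate synthase, was lower at -1.28 ± 0.39 (limma adjusted p = 0.0491). Among the 6 fits with an array less, SEX1 passed without UV-A replicate 2 or UV-B replicate 2 only (adjusted p up to 0.128), and ATTPS1 passed without UV-B replicate 2 only (adjusted p up to 0.215). ATTPS1 passed in 4 of 17 alternatives, and its call also ended with print-tip loess, median centring, plain subtraction, ignored weights, the 6 UV arrays alone and the Cy3 signal alone. The mean over the 5 SEX1 probes was 0.10 (adjusted p = 0.845).

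Of 6 fatty acid genes, ADS2, a desaturase of cold acclimation, was higher by 2.05 ± 0.43 (limma adjusted p = 0.0115), with -2.24, -2.36 and -2.06 in UV-B and 0.23, -1.33 and 0.59 in UV-A. The UV-B arrays were close together and UV-A replicate 2 was the low one of its group. ADS2 missed the threshold when UV-A replicate 1 or UV-A replicate 3 was left out (adjusted p up to 0.0795), and the mean of its 2 probes was 1.01 (adjusted p = 0.0751).

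Names with 20 or more probes showed how far the probes of a name agreed. PRXR1 and AT3G14210 have been given above. GAPC, cytosolic glyceraldehyde-3-phosphate dehydrogenase of glycolysis, had 8 of 28 probes lower and none higher, and its median was -0.93, with 1 positive probe. AT1G54020, annotated from its Arabidopsis match and carried by 33 probes, had 4 higher and none lower and a median of 0.37. AT1G72290, a Kunitz-type protease inhibitor, had 1 of 31 probes higher and 4 lower, over a range from -3.31 to 1.56. DIN11, a dark-inducible gene, had none of 25 probes called, and its median was 0.21. Outside this rule and chosen after its values were seen, ACO1 had 8 of 9 probes lower and none higher, with a median of -2.31 and a range from -4.51 to -1.07.

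**Figure D4:**
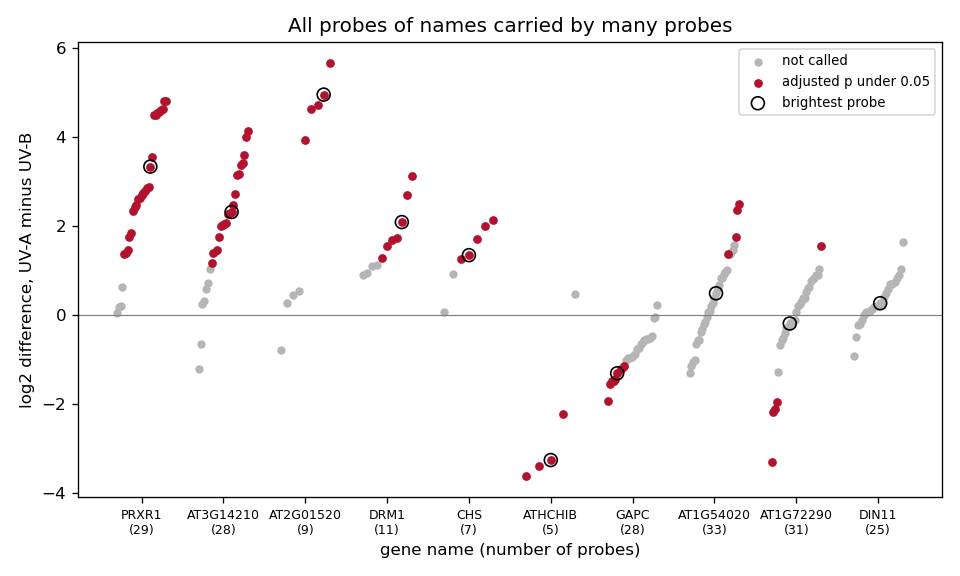
Difference UV-A minus UV-B on the log2 scale for every probe of 10 names carried by 5 or more probes, with called probes in red and the brightest probe circled. The 10 are the names with 20 or more probes and others picked without a rule, out of 86 names on at least 5 probes. ACO1 is not shown. PRXR1 (25 of 29 probes) and AT3G14210 (20 of 28) are called mostly higher, ATHCHIB (4 of 5) lower, and the probes of AT1G72290 lie on both sides of 0.

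Over the 57 genes named by rule, 49 passed the test. That share follows from the rule, which mostly picks called genes, and 13.7% of all 999 names were called. Of the 49, 20 passed in every alternative in which they were measured. All 49 kept their sign, and none of the 379 called probes changed sign in any alternative fitted per probe. A total of 27 passed without any 1 of the 6 UV arrays. Without the replicate block, 13 missed the threshold (adjusted p from 0.0525 to 0.217), namely ADS2, AT1G73325, ATCLH1, ATPDIL1-2, ATTPS1, CESA1, CHS, CSD1, MT2A, PRXCB, RD21, SEX1 and TUB6. In the 6 UV arrays alone 12 missed it (0.0515 to 0.102), which were TUA5 and the same genes without ADS2 and RD21. Without the arrays numbered 3, 17 missed it (0.0506 to 0.186), among them DRM1, AT1G07920, AT2G39330, AT5G45280 and TUA5 and all of those 13 but CESA1. In the Cy3 signal alone, which is not divided by the dark channel but was normalized with both channels, 20 missed it (0.0571 to 0.766). With the mean over all probes of a name, 14 missed it (0.0564 to 0.989). Among names that kept their call the difference was smaller for PRXR1 (2.73), AT2G01520 (2.71), ATHCHIB (-2.41), ARAC9 (2.04), AT3G14210 (1.90), AT4G27830 (1.84), AT5G59910 (1.76), DRM1 (1.655), AT2G33830 (1.65), AT3G51550 (1.61), HIS1-3 (1.35), AT2G36160 (1.14) and AT1G07920 (-1.11). It was larger for ATGSTF3 (-3.53), ERD14 (3.30), PIP1B (2.74) and AT2G39330 (1.84). Probes of 18 of the 57 held a saturated spot on at least 1 UV array, and the sizes of their differences are therefore not exact. These spots lay on 4 UV arrays for AT2G01520 and PRXR1, on 3 for AT3G14210, AT5G59910 and ATHCHIB, and on 2 for AT4G27830, ATGSTF3, PIP3 and PR4. None of the 57 was below 1.5 times background in the light channel of all 3 UV-B arrays.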

How the data were processed

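Per the labels, the arrays were labelled with a dendrimer kit (3DNA Array 900). The authors deposited foreground and background intensity values of both channels per spot, and a weight of 0 or 1, a score without a stated meaning. No source used here names the scanner or its software. Only the 5300 weight-1 spots of 6272 entered the analysis. A further table deposited by the authors holds log2 values (column mean 0, medians -0.165 to 0.047). It correlated at -0.963 to -0.854 with log2(light/dark) of the scanner values, so its direction was read as dark over light. How it was normalized is not stated. The dark self-hybridisations named in the design text are not analysed here.

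Background was corrected with normexp (offset 50), ratios were normalized by loess within arrays, and spots of a probe were averaged (limma 3.58.1, R 4.3.3; figures with matplotlib 3.10.9, Python 3.11.15). A filter (1.5 times background in at least 1 channel on 3 arrays) removed no probe. Of 2507 probes, 2110 carried one of 999 Arabidopsis names and 123 had no match. The clones were not placed on the turnip genome, so no coordinates are given. The limma fit held a mean per light and the replicate number as a block over all 9 arrays (residual degrees of freedom 4). Tests were two-sided and adjusted over all probes of a fit. The mean over probes of a name was fitted apart and adjusted over the 999 names, so its adjusted p is on another scale. PIP3, with 1 probe, had a limma adjusted p of 0.00105 there and of 0.0018 in the main fit. The pairing by number comes from the titles. Deviations of same-numbered UV-A and UV-B arrays from their group means correlated at 0.196, 0.105 and 0.204, and those of other UV-A and UV-B pairs at 0.000701 at most. Deviations cancel out within a light, so positive values in same-numbered pairs push the others down, and this contrast does not test the pairing. Same-numbered blue and UV-A arrays correlated at 0.413, 0.622 and 0.608, and blue and UV-B arrays at 0.255, 0.244 and 0.329. The script was tested on simulated data. The number of arrays limits the precision.

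Named genes were the 10 largest non-overlapping called differences each way, the 2 largest called members of each of 24 lists (or the brightest member), and CHS, F3H, DFR, LDOX, PAL1, PR4, ATHCHIB, PRXR1, UVR8 and PHOT1. Members and lists were chosen with earlier results of these data known. A saturated spot was one at 65535.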

Additional observations from a re-analysis of the deposited data

Results flagged for a closer look

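On the arrays numbered 3, the spots without a clone gave signal above background where the other arrays gave little. Their share above background was 100% on blue replicate 3, 100% on UV-A replicate 3 and 99.3% on UV-B replicate 3, of 135 spots each. On the other 6 arrays it was between 3.7% and 8.15%.

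Of all probes, 3 were called against darkness in both lights with opposite directions. One ATGSTF3 probe had a difference of -4.22 ± 0.44 (limma adjusted p = 0.000182), with a mean of -1.37 in UV-A and 2.86 in UV-B. The ERD14 probes had 3.10 and 3.50, with means of 1.86 and 1.86 in UV-A and of -1.24 and -1.63 in UV-B. All 3 passed the test of UV-A against UV-B. Against darkness (limma without pairing), the ATGSTF3 probe had an adjusted p of 0.0476 in UV-A and 0.000164 in UV-B. The ERD14 probes had 0.0369 and 0.0211 in UV-A, and 0.0473 and 0.00694 in UV-B. Several of these values are near the threshold, and ratios to dark include dye bias.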

How the results depend on the processing

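The 379 calls (234 higher, 145 lower, 61.7% higher) became 166 (115 and 51, 69.3%) with no replicate block, 177 (124 and 53) in the 6 UV arrays alone, 623 (304 and 319, 48.8%) with the authors' values and 154 (120 and 34, 77.9%) in the Cy3 signal alone. They were 152 (106 and 46) without the arrays numbered 3, an alternative added after seeing the data, as was the mean over probes of a name. Without 1 UV array the totals ran from 119 to 467, with 89 to 308 higher (66% to 74.8%) and 30 to 159 lower. Plain subtraction, median centring, print-tip loess, ignored weights and the strict filter gave 438, 372, 440, 342 and 357 calls. The 166 calls without the block were all among the 379. The cause of these shifts was not tested. Of the named genes not called, 4 changed sign with 1 UV array left out, where UVR8 ranged from -0.14 to 0.41, ATR2 from -0.15 to 0.27, DFR from -0.11 to 0.98 and PHOT1 from -0.94 to 0.00207. Without the arrays numbered 3, UVR8 was -0.14 and PHOT1 was 0.032. In the light channel, 75.3% and 89.1% of probes reached 1.5 times background on UV-B replicates 1 and 2, and 99.5% on UV-B replicate 3. How this bears on faint probes was not tested. With only probes at 1.5 times background in both channels of all 6 UV arrays, all 305 calls measured there were kept. The log ratios of these probes are the same as in the main fit, and only the shared spread and the adjustment change. The count therefore cannot show how dim signal bears on the calls.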
